A study of Bos taurus with 3 samples.

Results

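The epithelial junction genes described here are 57 of the 9154 genes that had a tag in at least 1 of 3 digital gene expression (DGE) libraries of bovine mammary gland. They were chosen by gene symbol, with earlier results of these data known: the claudins (CLDN), occludin (OCLN), the zonula occludens proteins (TJP), the MARVELD genes, the junctional adhesion molecules (F11R, JAM2 and JAM3), cingulin-like (CGNL1), the cadherins (CDH), the catenins (CTNN), the nectins (PVRL), the connexins (GJ), the desmosomal genes (DSC2, DSG1, JUP and the PKP genes), the PARD6 genes and EPCAM. The 57 accessions carried 55 symbols, since CDH19 and TJP1 had 2 accessions each, and 54, 47 and 50 of them were listed at −35 d, −7 d and +3 d. By symbol, 22 were counted as tight junction genes, 15 as adherens junction genes, 6 as desmosomal genes, 9 as gap junction genes and 3 as genes of the PAR polarity complex. EPCAM was kept apart. CTNNBL1, a splicing-associated protein, shares only the prefix of its symbol with the catenins.

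Mammary biopsies came from 18 Holstein cows in the second parity, 6 at each time point relative to parturition: day −35, in the dry period, day −7, in stage I of lactogenesis, and day 3, in stage II with colostrum. Stage I below is the −7 d library against −35 d, stage II the +3 d library against −7 d, and the whole interval the +3 d library against −35 d. No treatment was given in the labels. Each library came from 1 pool of those 6 cows, so none of the differences below has a replicate check. In such bulk tissue, fewer cells of a type and less RNA per cell cannot be told apart.

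Epithelial cells are joined by several kinds of contact. Tight junctions seal the space between neighbouring cells near the apex, with claudins and occludin as membrane strands and the zonula occludens proteins as the scaffold beneath them. Adherens junctions hold cells together through cadherins, which bind β-catenin or plakoglobin and, through α-catenin, actin, and through nectins. Desmosomes tie the keratin filaments of neighbours together through desmogleins, desmocollins, plakoglobin and plakophilins, and gap junctions are channels of connexins that let small molecules pass from cell to cell. In the mammary gland, alveolar tight junctions are leaky in pregnancy and close around parturition, which keeps milk constituents in the alveolar lumen.

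A level is given in TPM, the tags of a gene per 1000000 clean tags of the library with no correction for transcript length or for the number of CATG sites in a transcript. The libraries held 5593237 to 5914422 clean tags, so that 1 tag was worth 0.169 to 0.179 TPM, and a count of 0 allowed up to 0.507, 0.536 and 0.513 TPM at −35 d, −7 d and +3 d by counting alone. Tags with a single copy had been removed by the authors, so a gene not listed may have had more. A gene was called upregulated or downregulated at an FDR of at most 0.001 in the exact test of Audic and Claverie, adjusted over all genes tested, with at least a 2-fold difference. This test compares 2 libraries and covers counting error only, as do the 95% confidence intervals (CI), which are exact binomial intervals for ratios. The 5 milk protein genes with over 1% of the tags of a library took 0.348%, 4.13% and 22.6% of the clean tags, and the median log2 ratio of all genes was −0.19 in stage I, −0.31 in stage II and −0.53 over the whole interval. TMM scaling, which centres most genes near 0, was therefore set beside the main values.

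In stage I, 2 of 56 junction genes tested were upregulated (CLDN8 and DSG1) and 6 were downregulated (CLDN4, CLDN11, CDH1, CTNNB1, JUP and DSC2). The shares were 3.57% and 10.7% of the junction genes, and over all 8967 genes tested they were 2.62% and 6.45%. After TMM scaling, the 2 upregulated genes were called again, and 4 genes (7.14%) were downregulated, compared with 4.22% and 3.90% of all genes. CLDN4 and DSC2 were the genes that lost their call. For the 41 junction genes with a mean level of 1 TPM or more, the median of the log2 ratios was −0.47, with 28 below 0. Of all genes at that level, 4727 of 7569 were below 0. After TMM scaling the median was −0.28, with 24 of 41 junction genes below 0, beside 3791 of 7569 of all genes.

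In stage II, CLDN5 and PVRL2 were upregulated and CLDN8 was downregulated among 52 junction genes tested. Upregulated genes made up 3.85% of the junction genes and 3.12% of all 8784 genes tested, and downregulated genes 1.92% and 10.4%. With TMM scaling, 3 junction genes (5.77%) were upregulated, CLDN11 being the addition, and 1 (1.92%) was downregulated, compared with 5.87% and 4.90% of all genes. Their median log2 ratio was −0.12, and it turned to 0.19 with TMM scaling.

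Over the whole interval, 6 of 56 junction genes were downregulated (10.7%): EPCAM, CDH1, CTNNB1, JUP, DSC2 and PKP2. None was upregulated, although 7 had a higher level at an unadjusted p under 0.05 and Fisher's exact test called none as well. Over all 8988 genes tested, 16.3% were downregulated and 2.33% upregulated. This comparison depended most on the scaling. After TMM scaling, 5 junction genes (8.93%) were upregulated, namely CDH13, PVRL2, DSG1, CLDN5 and JAM3, and JUP alone (1.79%) was downregulated, compared with 6.23% and 4.94% of all genes. Their median was −0.42 by clean tags and 0.08 with TMM scaling.

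**Figure D1:**
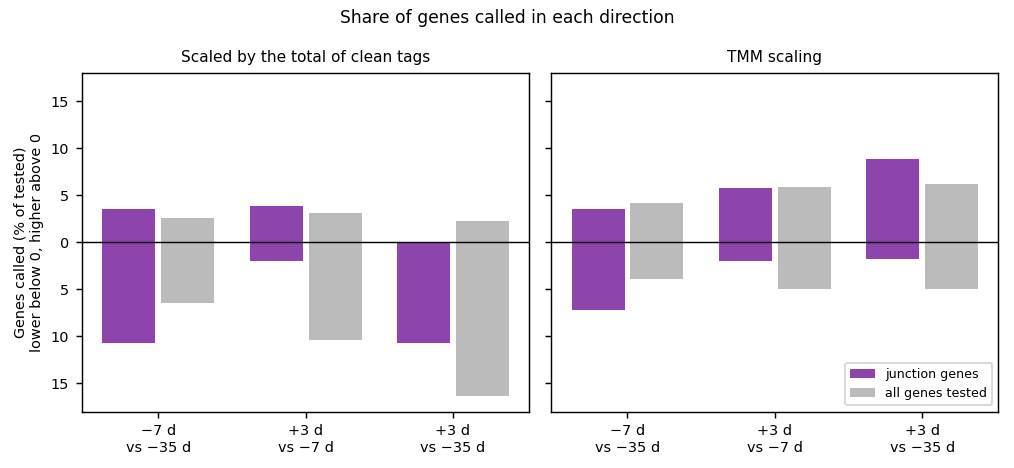
Percentage of tested genes called upregulated (above 0) or downregulated (below 0) among the junction genes (purple) and among all genes (grey) in the 3 comparisons, scaled by the total of clean tags (left) and by TMM (right). Over the whole interval, the downregulated junction genes go from 10.7% to 1.79% with TMM scaling, and the upregulated ones from 0 to 8.93%.

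A limit holds for every call. With an assumed coefficient of variation of 0.2 between pools, edgeR's exact test called no junction gene in any comparison, and the lowest FDR among them was 0.00301 in stage I, 0.00645 in stage II and 0.00722 over the whole interval. At an unadjusted p under 0.05 that test left 11, 4 and 10 junction genes, in the same order. The comparisons also share libraries, −7 d being used in both stages, so the values of each are given side by side and not as independent evidence.

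Together the 57 genes held 12496, 9797 and 8817 tags in the libraries of −35 d, −7 d and +3 d, which is 2113, 1752 and 1508 TPM. EPCAM and CTNNA1 had the most tags of the members in each library. EPCAM, a calcium-independent adhesion molecule of epithelial cells, had 498 TPM at −35 d, 293 TPM at −7 d and 210 TPM at +3 d, with the rank of 96, 161 and 192 among all genes. Its level was highest in the dry gland and lowest after parturition. It was 1.70-fold lower at −7 d than at −35 d (95% CI 1.599 to 1.81), 1.39-fold lower at +3 d than at −7 d (1.29 to 1.502), and 2.37-fold lower at +3 d than at −35 d (2.21 to 2.53), where it was called downregulated (FDR = 1.932e-153). With TMM scaling, the log2 ratio of this last comparison was −0.75, under the 2-fold threshold. EPCAM's share of the junction tags was 23.6%, 16.7% and 13.9%.

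**Figure D2:**
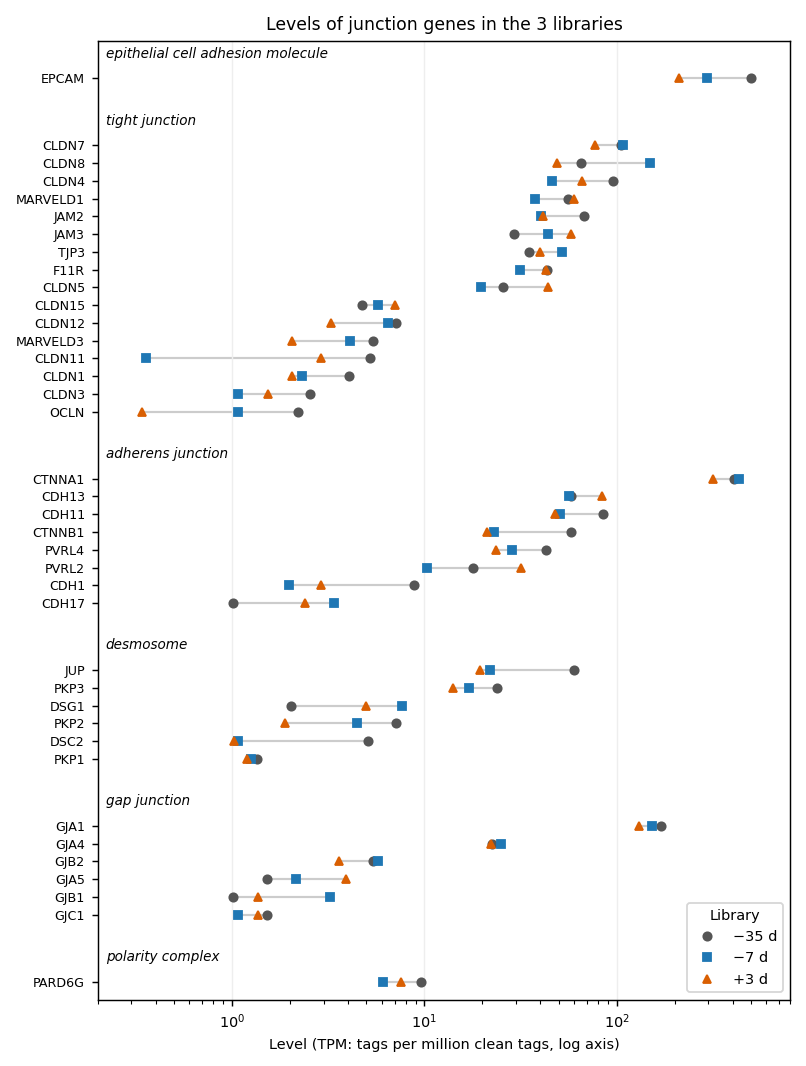
Level of 38 junction genes that average 1 TPM or more, CTNNBL1 left out, on a log axis of TPM, with a grey circle for −35 d, a blue square for −7 d and an orange triangle for +3 d, grouped by kind of junction. CLDN8 has its highest level at −7 d (149 TPM), whereas EPCAM, CTNNB1, JUP, CDH1 and DSC2 have theirs at −35 d.

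Among the 11 claudins, CLDN8 and CLDN4 moved in opposite directions in stage I. CLDN8, known from the tight epithelium of the kidney collecting duct, had 65.3 TPM at −35 d, 149 TPM at −7 d and 48.9 TPM at +3 d (386, 836 and 286 tags). The −7 d library stood above both others. The level was 2.29-fold higher at −7 d than at −35 d (95% CI 2.03 to 2.59, FDR = 1.145e-42) and 3.06-fold lower at +3 d than at −7 d (2.67 to 3.51, FDR = 8.525e-67), and CLDN8 was called with TMM scaling in both stages too. By clean tags it was the only junction gene called in each stage, and CLDN11 was called in each with TMM scaling. CLDN4, a sealing claudin, had 95.4 TPM at −35 d, 46.1 TPM at −7 d and 66.2 TPM at +3 d. Its level was lowest in the −7 d library, 2.07-fold below −35 d (1.78 to 2.40, FDR = 4.166e-22), just past the 2-fold threshold, and its log2 ratio of −0.86 with TMM scaling was under it. At +3 d it was 1.44-fold higher than at −7 d (1.22 to 1.69), which was not called. CLDN7, which is also found along the basolateral membrane, had 106, 108 and 77.5 TPM, and no call was made.

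The number of tags of 1 claudin per tag of another in the same library does not depend on any scaling, a view chosen after the values were seen. CLDN8 had 0.684 tags per tag of CLDN4 at −35 d (95% CI 0.600 to 0.780), 3.24 at −7 d (2.82 to 3.74) and 0.739 at +3 d (0.632 to 0.863). The ratio at −7 d lay above the intervals of both other libraries, whose intervals overlapped. As a share of all claudin tags, CLDN8 held 20.6% at −35 d (95% Wilson interval 18.8% to 22.5%), 44.0% at −7 d (41.7% to 46.2%) and 19.3% at +3 d (17.4% to 21.4%). CLDN4 made up 30.1%, 13.6% and 26.1% in the same order, while CLDN7 held 33.4%, 31.8% and 30.6%. The claudin total was 317, 340 and 254 TPM.

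CLDN5, the claudin known for the endothelium of blood vessels, had 25.5, 19.7 and 43.8 TPM at −35 d, −7 d and +3 d. The +3 d library was the highest, 2.23-fold above −7 d (95% CI 1.77 to 2.81, FDR = 2.680e-12) and 1.72-fold above −35 d (1.40 to 2.11). CLDN11, known from myelin and the testis, had 31, 2 and 17 tags in the libraries of −35 d, −7 d and +3 d (5.24, 0.358 and 2.91 TPM). It was downregulated in stage I (FDR = 1.269e-06) and had an FDR of 0.00193 in stage II, and no fold is given because of the low count at −7 d. Of the remaining claudins, CLDN12 had 7.10, 6.44 and 3.25 TPM, CLDN15 had 4.73, 5.72 and 7.01 TPM, CLDN1 had 4.06, 2.32 and 2.05 TPM, and CLDN3 had 2.54, 1.07 and 1.54 TPM. None of these was called, nor were CLDN2 and CLDN19, which had at most 5 tags in any library.

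The junctional adhesion molecules are immunoglobulin-like proteins of tight junctions and also of endothelium. F11R had 43.3, 31.3 and 42.8 TPM and was not called. JAM2 had 67.5, 40.4 and 41.6 TPM, and JAM3 had 29.3, 44.0 and 57.8 TPM. By clean tags, these neighbours in kind went opposite ways between −35 d and +3 d. JAM2 was 1.62-fold lower (95% CI 1.38 to 1.91) and JAM3 was 1.98-fold higher (1.64 to 2.39). The fall of JAM2 depended on the scaling, its log2 ratio going from −0.70 to −0.20 with TMM. By clean tags the median of all genes was −0.53. JAM3 had an FDR of 5.972e-13 and missed a call by its fold alone, and TMM scaling took it past the threshold, with a log2 ratio of 1.48. JAM3 had 0.434 tags per tag of JAM2 at −35 d (95% CI 0.361 to 0.520), 1.09 at −7 d (0.905 to 1.31) and 1.39 at +3 d (1.18 to 1.65).

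Of the scaffold proteins, TJP3 had 35.0, 51.8 and 39.9 TPM. TJP3 was 1.48-fold higher at −7 d than at −35 d (95% CI 1.24 to 1.78), under the 2-fold threshold. The −7 d library had the highest level of the 3. TJP1, the founding member of this family, had at most 6 tags on either of its 2 predicted accessions. Occludin had 13, 6 and 2 tags (2.20, 1.07 and 0.342 TPM) and was not called. MARVELD3, its relative in the tight junction, had 5.41, 4.11 and 2.05 TPM, and MARVELD1, which is placed here by name, had 56.1, 37.5 and 59.9 TPM. MARVELD1 was 1.495-fold lower at −7 d than at −35 d (1.25 to 1.79) and 1.59-fold higher at +3 d than at −7 d (1.34 to 1.90), without a call. Of the tight junction genes, 17 averaged 1 TPM or more, and their median log2 ratio was −0.39 in stage I, 0.19 in stage II and −0.45 over the whole interval. With TMM scaling these medians were −0.20, 0.50 and 0.05, so that the last turned in sign.

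**Figure D3:**
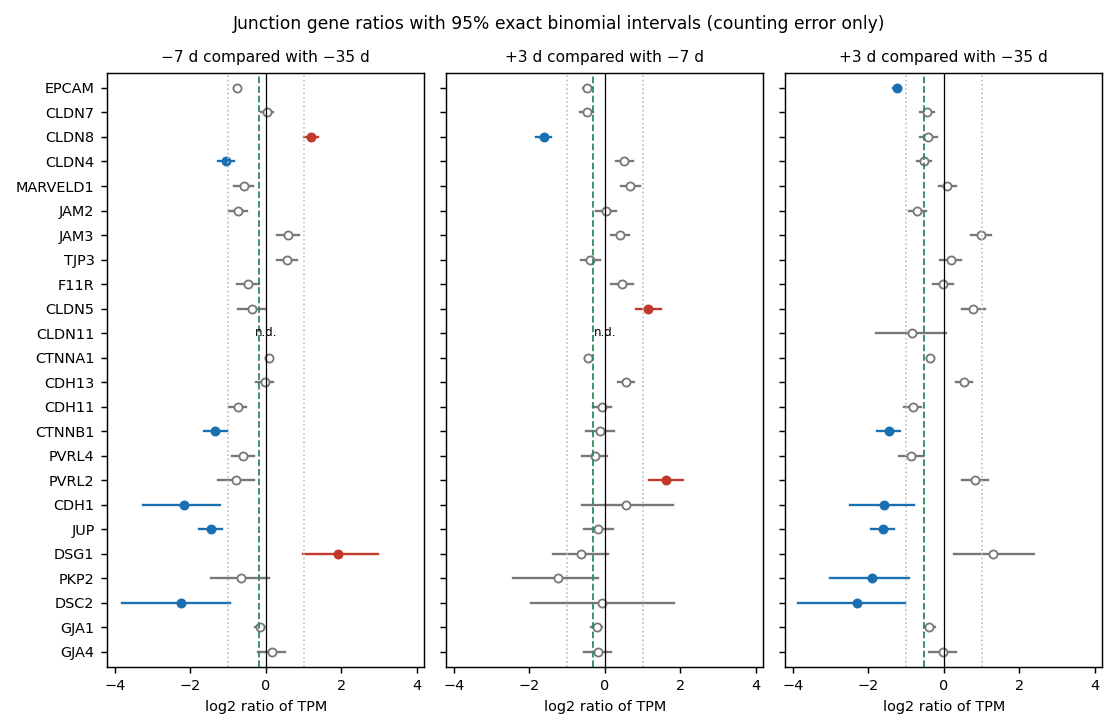
Log2 ratio of TPM of 24 named junction genes in the 3 comparisons, with 95% exact binomial intervals for counting error. Filled points are called upregulated (red) or downregulated (blue), open points are not called, n.d. marks ratios not given for counts of at most 3 tags, dotted lines mark a 2-fold difference and the green dashed line the median of all genes. CLDN8 is red in stage I and blue in stage II, and 6 blue points stand in the right panel.

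In the adherens junction, the RNA of β-catenin fell in stage I, while that of α-catenin was near its dry gland value by clean tags. CTNNB1, which links cadherins to α-catenin and also carries Wnt signals, had 57.7 TPM at −35 d, 22.9 TPM at −7 d and 21.04 TPM at +3 d. Both later libraries were below the dry gland. The level was 2.52-fold lower at −7 d (95% CI 2.05 to 3.11, FDR = 1.188e-19) and 2.74-fold lower at +3 d (2.22 to 3.40, FDR = 3.435e-23) than at −35 d. The stage I call was kept with TMM scaling, and the log2 ratio over the whole interval became −0.96, just under the threshold. CTNNA1 (α-catenin) had 406, 432 and 318 TPM. It was 1.06-fold higher at −7 d than at −35 d (1.01 to 1.13) and 1.36-fold lower at +3 d than at −7 d (1.28 to 1.45). With TMM scaling its log2 ratio was 0.28 in stage I and −0.14 in stage II, without a call. CTNNA1 had 7.05 tags per tag of CTNNB1 at −35 d (95% CI 6.29 to 7.92), 18.9 at −7 d (15.8 to 22.8) and 15.1 at +3 d (12.6 to 18.3). CTNNA2, the neuronal α-catenin, was listed with 2 tags at +3 d only.

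Plakoglobin (JUP), a close relative of β-catenin found in desmosomes and adherens junctions, had almost the same values as CTNNB1. Its levels were 60.0 TPM at −35 d, 22.0 TPM at −7 d and 19.5 TPM at +3 d. It was 2.73-fold lower at −7 d than at −35 d (95% CI 2.22 to 3.38, FDR = 4.483e-23) and 3.08-fold lower at +3 d than at −35 d (2.49 to 3.84, FDR = 3.831e-28), and TMM scaling kept both calls. JUP had 1.04 tags per tag of CTNNB1 at −35 d (0.895 to 1.21), 0.961 at −7 d (0.744 to 1.24) and 0.927 at +3 d (0.712 to 1.21), so that the intervals of the 3 libraries overlapped.

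E-cadherin (CDH1), the cadherin of epithelia, had 52, 11 and 17 tags in the same order (8.79, 1.97 and 2.91 TPM). The dry gland was the highest. CDH1 was 4.47-fold lower at −7 d than at −35 d (95% CI 2.30 to 9.502, FDR = 2.465e-06) and 3.02-fold lower at +3 d than at −35 d (1.72 to 5.58, FDR = 8.426e-05). The stage I call was kept with TMM scaling and the other was not. Most cadherin tags belonged to cadherins that are not markers of epithelium: CDH11, known from mesenchymal cells, and CDH13, a cadherin without a cytoplasmic tail that is known from blood vessels. Tags were not corrected for the number of CATG sites, and the authors removed tags that matched several genes. Tag shares therefore do not rank the amounts of RNA of different genes. CDH11 had 84.7, 50.4 and 47.7 TPM and CDH13 had 57.8, 56.7 and 83.6 TPM. CDH11 made up 53.9% of the cadherin tags at −35 d (95% Wilson interval 50.7% to 57.1%), 44.3% at −7 d and 34.5% at +3 d (31.3% to 37.9%). CDH13 made up 36.8% (33.8% to 40.0%), 49.8% and 60.5% (57.1% to 63.8%). Neither was called, but CDH13 was called upregulated over the whole interval with TMM scaling (log2 ratio 1.03). CDH17 had 6, 19 and 14 tags, and CDH5, the cadherin of endothelium, had 7, 2 and 6.

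**Figure D4:**
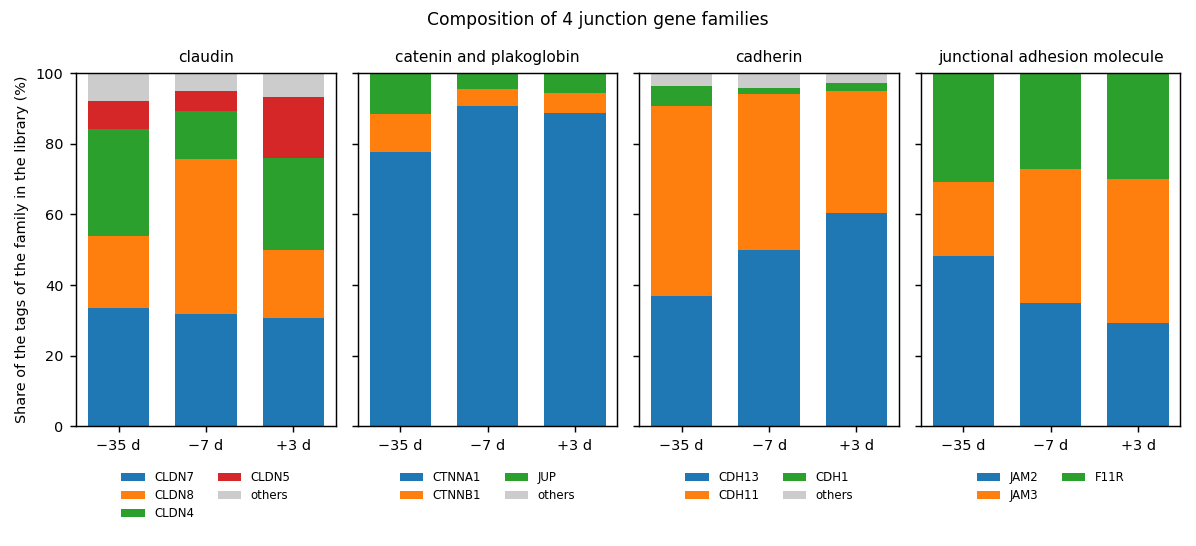
Share of the tags of 4 junction gene families held by each gene in the 3 libraries, in percent, where genes under 5% in every library are summed as others. CLDN8 takes 44.0% of the claudin tags at −7 d, CTNNA1 takes 90.6% of the catenin and plakoglobin tags there, and CDH13 and JAM3 have their largest shares at +3 d.

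Nectins are immunoglobulin-like molecules that hold cells together beside cadherins. PVRL2 had 17.9 TPM at −35 d, 10.4 TPM at −7 d and 31.6 TPM at +3 d, so that the −7 d library was the lowest and the +3 d library the highest. It was 3.05-fold higher at +3 d than at −7 d (95% CI 2.26 to 4.17, FDR = 1.511e-14), and 1.77-fold higher than at −35 d (1.38 to 2.26). The latter was called with TMM scaling, at a log2 ratio of 1.32. PVRL4, a nectin of epithelial cells, had 43.1, 28.4 and 23.6 TPM and was not called. PVRL2 had 0.416 tags per tag of PVRL4 at −35 d (0.328 to 0.523), 0.365 at −7 d (0.265 to 0.496) and 1.34 at +3 d (1.07 to 1.68).

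Among the 6 desmosomal genes, the summed level was 99.4 TPM at −35 d, 53.5 TPM at −7 d and 42.6 TPM at +3 d. JUP, described above, held 60.4%, 41.1% and 45.8% of these tags. DSC2 (desmocollin) had 30, 6 and 6 tags (5.07, 1.07 and 1.03 TPM). It was lower in both later libraries, 4.73-fold at −7 d (95% CI 1.94 to 13.9, FDR = 4.060e-04) and 4.94-fold at +3 d (2.02 to 14.5, FDR = 1.620e-04), and both calls were lost with TMM scaling. DSG1 (desmoglein) had 12, 43 and 29 tags (2.03, 7.69 and 4.96 TPM). It was upregulated in stage I, 3.79-fold (1.96 to 7.89, FDR = 4.958e-05), which is opposite to DSC2. DSG1 had 0.4 tags per tag of DSC2 at −35 d (0.187 to 0.805), 7.17 at −7 d (3.04 to 20.6) and 4.83 at +3 d (1.97 to 14.2).

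The plakophilins are the armadillo proteins of the desmosomal plaque. PKP2 had 42, 25 and 11 tags (7.10, 4.47 and 1.88 TPM). The dry gland had the highest count and the +3 d library the lowest, 3.77-fold below it (95% CI 1.91 to 8.13, FDR = 6.130e-05), and TMM scaling ended the call. PKP3 had 23.8, 16.98 and 14.0 TPM and PKP1 had 8, 7 and 7 tags, and neither was called. Over the 6 genes, the median log2 ratio was −0.57 in stage I, −0.22 in stage II (0.08 with TMM scaling, a turn of sign) and −1.19 over the whole interval.

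None of the 9 gap junction genes was called in any comparison, with either scaling. Among all genes tested, 2.33% to 3.12% were upregulated and 6.45% to 16.3% downregulated by clean tags. With TMM scaling the shares were 4.22% to 6.23% and 3.90% to 4.94%. At such shares few calls would fall among 9 genes. All connexins but GJA1 and GJA4 had at most 32 tags in any library. At such counts only large differences were called among the junction genes, as for DSC2 with 30 and 6 tags in stage I. GJA1, a connexin known from myoepithelium, had 171, 152 and 131 TPM and held 83.7%, 79.4% and 78.6% of the connexin tags. It was 1.304-fold lower at +3 d than at −35 d (95% CI 1.19 to 1.43) by clean tags, and with TMM scaling the direction turned, to a log2 ratio of 0.12. GJA4, a vascular connexin, had 22.5, 25.0 and 22.1 TPM. GJB2 and GJB1, connexins found in glandular epithelium, had 32, 32 and 21 tags and 6, 18 and 8 tags. GJA5, another vascular connexin, had 9, 12 and 23 tags, and GJC1 had 9, 6 and 8 tags. Over the 7 connexins that averaged 1 TPM or more, the median log2 ratio was 0.15 in stage I, −0.18 in stage II and −0.03 over the whole interval, and the last 2 turned to 0.13 and 0.47 with TMM scaling.

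The polarity genes PARD6A, PARD6B and PARD6G encode the adaptor that brings atypical protein kinase C to the apical junction. PARD6G had 9.64, 6.08 and 7.53 TPM and the other two had at most 5 tags. None was called. CTNNBL1, the gene matched by name only, had 25.7, 17.9 and 14.7 TPM, and it was not called either. In all, 16 junction genes had a mean under 1 TPM, among them CDH2, CDH5, CDH6, CDH15, CTNNA2, PARD6A, PARD6B, CGNL1, CLDN2, CLDN19, GJC3 and both accessions of CDH19 and TJP1. They had at most 9 tags in any library, and no call was made on them. Counts this low left little room for a call at this depth. For example, 1 accession of CDH19, with 9, 0 and 3 tags, had an FDR of 0.0088 in stage I by the Audic-Claverie test.

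Genes outside the symbols above were followed as a list of 66 symbols for junctions and polarity, 35 of which were found (36 accessions). The list also held ANG, which does not encode a junction protein. In stage I, 1 of the 36 was upregulated and 1 downregulated, beside 2.62% and 6.45% of all genes. The upregulated gene was ANG (40.1, 92.6 and 160 TPM), which encodes a secreted ribonuclease known for its action on blood vessels. The downregulated gene was ZYX, the actin-associated adaptor zyxin (63.1, 26.5 and 46.4 TPM). In stage II, ACTN4, an actin crosslinker, was upregulated (40.6 TPM at −7 d and 87.2 TPM at +3 d), and NUMB, an endocytic adaptor, was downregulated (16.98 and 6.5 TPM). Each was the only call of its direction among 35 tested, beside 3.12% and 10.4% of all genes. Over the whole interval, 6 of 36 were downregulated and 1, again ANG, was upregulated, beside 16.3% and 2.33% of all genes. Of the 6, PERP, a desmosome-associated membrane protein, had 223, 132 and 72.5 TPM, and ILDR1, a protein of tricellular junctions, had 10.3, 4.47 and 2.74 TPM. TMM scaling kept 3 of the 6, namely PERP, ILDR1 and NUMB, and it raised the upregulated genes to 4 (ANG, ACTN4, CADM1 and VASP) over the whole interval and from 1 to 6 in stage II. Of all genes, it called 4.94% downregulated and 6.23% upregulated over the whole interval, and 5.87% upregulated in stage II. The list had a median log2 ratio of −0.27, −0.20 and −0.50 in the 3 comparisons, beside −0.19, −0.31 and −0.53 over all genes, and 0.11 in stage II with TMM scaling.

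Markers of the cells that these genes come from also differed between the libraries, and their part in the results above was not tested. The 12 luminal epithelium markers found were all listed in each library. They summed to 1737 TPM at −35 d, 1410 TPM at −7 d and 1085 TPM at +3 d. Of these markers, 2 were downregulated and 1 was upregulated in each of the 3 comparisons. Of all genes, 6.45% were downregulated in stage I, 10.4% in stage II and 16.3% over the whole interval. The upregulated shares of all genes were 2.62%, 3.12% and 2.33% in the same order. The median log2 ratio of the luminal markers was −0.46, −0.25 and −0.68, compared with −0.47, −0.12 and −0.42 for the junction genes. In stage I the median was also below 0 for endothelium (−0.41), myoepithelium and smooth muscle (−0.32), fibroblasts (−0.72), macrophages (−0.795) and T cells (−0.90). It was −0.19 for all genes, 0.00099 for adipocytes and 4.09 for the milk protein and milk fat globule genes. With TMM scaling the luminal medians were −0.27, 0.05 and −0.19, so that the sign turned in stage II, and those of the junction genes were −0.28, 0.19 and 0.08. The 12 endothelial markers summed to 555, 545 and 703 TPM with none at 0, 1 of them (ESAM) also standing in the list above. Their median log2 ratio was −0.41, 0.41 and 0.08 in the 3 comparisons. In stage II, 11 of 12 were above 0 with either scaling. Of all genes, 2517 of 7569 were above 0 by clean tags and 3777 with TMM scaling. By clean tags 1 endothelial marker, ERG, was upregulated, and 2 were with TMM scaling, beside 3.12% and 5.87% of all genes. The 12 markers of myoepithelium and smooth muscle summed to 1079, 680.5 and 1511 TPM with none at 0. In stage II, 7 of these 12 were upregulated (8 with TMM scaling) and none was downregulated. Of all genes, 3.12% were upregulated there (5.87% with TMM scaling) and 10.4% downregulated (4.90%). The 9 fibroblast markers summed to 8949, 6364 and 9826 TPM, again with none at 0. Of these 9, 2 were downregulated in stage I and 2 upregulated in stage II (1 and 4 with TMM scaling). The same shares of all genes were 6.45% and 3.12% (3.90% and 5.87% with TMM scaling). The 7 milk protein and milk fat globule genes, products of alveolar epithelium, were upregulated in each comparison. For the remaining lists, 6 adipocyte markers summed to 211, 141 and 290.5 TPM, 9 macrophage markers to 341, 262 and 473 TPM with MSR1 at 0 on 1 of its 2 accessions at −7 d, and 9 T cell markers to 220, 139 and 138 TPM. The 3 erythrocyte markers were at or near 0 in all libraries.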

How the data were processed

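DGE libraries were made by the authors from 1 pool of 6 cows per time point. The enzyme NlaIII cuts cDNA at CATG, and tags of 21 bases were sequenced. The authors removed adaptor, unknown-base, wrong-length and single-copy tags, and matched clean tags, allowing 1 mismatch, to Bos taurus transcripts (UMD 3.1). Counts deposited by the authors are copies of each distinct clean tag and unambiguous tags summed per gene. The deposited TPM values of the authors are gene tags per 1000000 clean tags, which recomputation gave within 0.0050 TPM. Columns of the authors' summary of mapping classes were not used. A symbol is the last name in brackets of a gene's description. Where a library did not list a gene, 0 tags were entered.

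Pairs of libraries were compared over all genes by the Audic-Claverie test (2 times the smaller tail), with Benjamini-Hochberg adjustment, FDR of at most 0.001 and a 2-fold difference, 0.01 TPM standing for 0 TPM. The depth of 5593237 to 5914422 clean tags and the tags of a gene set its precision. With 1 library per time point, no spread among cows was measured. Ratios are given where both libraries had over 3 tags. Medians use genes that averaged 1 TPM or more, after 0.5 tags were added to each count. Genes named with all values were called in any comparison or had a mean of at least 20 TPM. The members and lists were chosen with earlier results of these data known. Alternatives were TMM scaling, DESeq2 size factors, totals without genes over 1%, a 3-fold threshold, a mean of at least 5 TPM, 0.5 tags added, Fisher's test, and edgeR's exact test where the coefficient of variation between pools was assumed to be 0.2 or 0.4. Shares within a family and ratios of tags within a library were added after seeing the data. Some junction genes are counted in all totals but not reported here by name. The sequence of tags or proteins of the junction genes is not analysed here. Tools were Python 3.11.15, numpy 2.4.6, scipy 1.17.1, pandas 2.3.3, matplotlib 3.10.9, R 4.3.3, edgeR 4.0.16 and DESeq2 1.42.0.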

Additional observations from a re-analysis of the deposited data

How the results depend on the processing

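Fisher's exact test and 0.5 added tags gave the same numbers of called junction genes as the Audic-Claverie test in all 3 comparisons, and no called ratio of a named gene changed direction under any alternative in the comparison where it was called. Ratios without a call could turn, such as that of CLDN8 over the whole interval, from −0.42 to 0.08 on the log2 scale with TMM. An assumed coefficient of variation of 0.2 or 0.4 left 0 calls in each comparison and direction. In stage I, a 3-fold threshold or a mean of at least 5 TPM left 1 of 2 upregulated and 3 of 6 downregulated genes. In stage II, the 3-fold threshold left 1 of 2 upregulated genes. Over the whole interval (+3 d against −35 d), upregulated genes rose from 0 to 5 with TMM or DESeq2 scaling and to 3 without the genes over 1%, and downregulated genes went from 6 to 1, 1 and 2, and to 3 when genes averaging under 5 TPM were left out. The median log2 ratio moved from −0.47 to −0.28 (TMM) and −0.27 (DESeq2) in stage I. In stage II it moved from −0.12 to 0.19 (TMM), 0.20 (DESeq2) and 0.19 (without the genes over 1%). Over the whole interval it moved from −0.42 to 0.083 (TMM), 0.10 (DESeq2) and −0.050 (without the genes over 1%). These scalings raise the ratio of every gene by the same amount. No paired analysis was possible because each time point had 1 library. Counts of at most 3 tags limited 17 of the 57 genes in at least 1 library.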

Other observations

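Regulators of the epithelial state were followed over 13 genes, of which EHF, ELF3 and ELF5 also stand among the luminal markers above. The calls on ELF3 and ELF5 are therefore counted in both lists. In stage I, 3 of 13 were downregulated and none upregulated by the Audic-Claverie test, beside 6.45% and 2.62% of all genes: ELF3, an epithelial transcription factor (42.6, 12.9 and 25.5 TPM at −35 d, −7 d and +3 d), KLF4 (11.2, 4.47 and 11.1 TPM) and TWIST2 (10.5, 3.76 and 4.62 TPM). In stage II, KLF4 was upregulated and ELF5, the alveolar regulator, was downregulated (271, 353 and 155 TPM). Each was the only call of its direction among 12 tested, beside 3.12% and 10.4% of all genes. Over the whole interval (+3 d against −35 d), 2 of 13, KLF5 and TWIST2, were downregulated, beside 16.3% of all genes. TMM scaling kept KLF5, beside 4.94% of all genes. With TMM scaling ELF3 was also upregulated in stage II. The call on KLF4 in stage I and that on ELF5 in stage II were lost with TMM scaling.

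All 57 junction genes were matched to the annotation of the newer assembly ARS-UCD2.0, 52 by accession, and its gene order alone was used. CLDN3 and CLDN4 stand next to each other there without a protein-coding gene between them. Their levels at −35 d, −7 d and +3 d were 2.54, 1.07 and 1.54 TPM for CLDN3 and 95.4, 46.1 and 66.2 TPM for CLDN4, lowest at −7 d for both. CLDN3 had only 15, 6 and 9 tags. The 95% intervals of its log2 ratio included 0 in stage I (−2.89 to 0.21) and stage II (−1.13 to 2.29), so its lowest library is not settled. DSC2 and DSG1, with 1 gene between them, were called in opposite directions in stage I. The call on DSC2, which had 6 tags at −7 d, was lost with TMM scaling. PVRL4 and F11R have 2 genes between them, and F11R had 1.004 tags per tag of PVRL4 at −35 d (95% exact binomial interval 0.841 to 1.199), 1.10 at −7 d (0.883 to 1.37) and 1.81 at +3 d (1.47 to 2.25). Other close pairs of junction genes, such as CDH11 and CDH5, were found and are not described here. Neighbours were looked at after the values were seen.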
